A study of Homo sapiens with 20 samples.

Results

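The matrix metalloproteinases (MMPs), the ADAM and ADAMTS proteases, the ADAMTS-like (ADAMTSL) proteins and the tissue inhibitors of metalloproteinases (TIMPs) were described in hTCEpi, an established line of human corneal epithelium made immortal with telomerase. The genes were chosen by a rule on names, set with earlier results of these data known. The rule took protein-coding genes whose symbol is MMP, ADAM, ADAMTS, ADAMTSL or TIMP followed by a number. This gave 71 genes of 60671 gene identifiers. They were 23 MMP, 20 ADAM, 19 ADAMTS, 5 ADAMTSL and 4 TIMP genes. Recombinant human SPARC, a matricellular glycoprotein that binds collagen, was added to the culture medium at 0.05, 0.5 or 5 µg/ml for 24 hours, and control cells received 0 µg/ml. Each of the 4 groups had 5 samples, all in keratinocyte medium with added calcium. All samples came from 1 cell line. The labels do not say whether the 5 samples of a group were separate cultures, so p-values measure the spread between these samples, which may be technical. The groups are called control, SPARC 0.05, SPARC 0.5 and SPARC 5.

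MMPs are zinc proteases that cut extracellular matrix and are made as inactive precursors; most are secreted, while the membrane-type MMPs stay at the cell surface. ADAMs are membrane proteins, and those with a working protease site release the outer part of growth factors, receptors and adhesion molecules from the cell surface, a step called shedding. ADAMTS enzymes are secreted and act on proteoglycans, procollagens and microfibrils, ADAMTSL proteins resemble them but lack the protease domain, and TIMPs block the active site of MMPs and of some ADAMs. In the cornea, these enzymes are known for remodelling of the epithelial basement membrane and for wound closure.

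RNA was depleted of ribosomal RNA and sequenced as paired reads, and total counts per sample ranged from 31955358 to 50112286. Levels are given as CPM, the count of a gene per 1e+06 counts of its sample, scaled by TMM, the trimmed mean of M values method. Basal keratinocyte genes marked the line, with KRT5 at 1.13e+04 CPM in control, whereas KRT12, a keratin of differentiated corneal epithelium, had at most 4 counts in a sample. Summed over the genes of a list within each sample, corneal stroma and fibroblast markers lay between 5.71 and 8.32 CPM in control, 5.18 and 6.84 CPM at SPARC 0.05, 5.10 and 8.96 CPM at SPARC 0.5 and 5.96 and 10.3 CPM at SPARC 5. Over all 20 samples, immune markers lay between 0.441 and 1.87 CPM, endothelial markers between 0.239 and 1.28 CPM and melanocyte markers between 2.26 and 3.95 CPM. KERA had 0 counts in every sample and LUM at most 4. At SPARC 5 against control 0 of the 9 genes tested in these 4 lists were called by edgeR, with 2 at an unadjusted p under 0.05, and 0 by DESeq2, which gave an adjusted p for 6. Over all 22938 genes tested, edgeR called 11.6% in that comparison. COL1A1, a fibroblast collagen of these lists, rose at SPARC 5 against both lower doses. Of 10 corneal and basal epithelial markers tested, KRT14, ITGB4 and TP63 rose and KRT15, ALDH3A1 and EPCAM fell at SPARC 5 against control. Of all genes tested, 7.04% rose and 4.58% fell there. The part of these markers in the results was not tested. In such bulk samples, fewer cells of a type and less RNA per cell cannot be told apart. On the second principal component, which held 6.58% of the variance, replicates 2 and 5 of SPARC 5 stood apart from the rest. They lay on opposite sides, at 48.2 and −40.1, and replicate 2 of SPARC 0.5 was next lowest at −26.5. The correlation of a sample's deviation with the GC content of genes was 0.128 ± 0.106 in control and between −0.0596 ± 0.0434 and −0.0355 ± 0.0323 at the 3 doses (mean ± SD, n = 5 each).

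The sequence before the start of 4 of the genes that differed between doses is shown. They were picked after the calls were known, and other genes called are not shown. The windows come from RefSeq (GRCh38.p14), which held 250 bases before the start for 44 of the 71 genes (45 windows) and for 22 of the 35 genes tested. Capitals mark matches to 4 motifs searched on both strands: the AP-1 motif TGANTCA, the TATA box TATAAA, the GC box GGGCGG and the CAGA box AGCCAGACA. Bases that GENCODE 29 places inside the gene were left off. The windows are chr11:102780629-102780878 on the minus strand for MMP10, chr14:22836335-22836556 on the plus strand for MMP14, chrX:47582186-47582312 on the plus strand for TIMP1 and chr22:32801455-32801700 on the plus strand for TIMP3. All are written 5′ to 3′.
MMP10: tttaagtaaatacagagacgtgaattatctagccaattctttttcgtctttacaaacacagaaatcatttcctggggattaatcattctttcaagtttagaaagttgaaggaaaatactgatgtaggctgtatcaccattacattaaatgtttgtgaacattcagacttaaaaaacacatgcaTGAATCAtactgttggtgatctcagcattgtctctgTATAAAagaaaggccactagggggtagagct
MMP14: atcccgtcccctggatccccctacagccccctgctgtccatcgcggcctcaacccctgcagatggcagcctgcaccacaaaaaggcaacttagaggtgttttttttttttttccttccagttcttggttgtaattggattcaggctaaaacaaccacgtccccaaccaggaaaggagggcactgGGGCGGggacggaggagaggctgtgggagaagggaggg
TIMP1: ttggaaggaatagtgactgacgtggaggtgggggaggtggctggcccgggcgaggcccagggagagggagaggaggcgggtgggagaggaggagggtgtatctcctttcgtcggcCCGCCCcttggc
TIMP3: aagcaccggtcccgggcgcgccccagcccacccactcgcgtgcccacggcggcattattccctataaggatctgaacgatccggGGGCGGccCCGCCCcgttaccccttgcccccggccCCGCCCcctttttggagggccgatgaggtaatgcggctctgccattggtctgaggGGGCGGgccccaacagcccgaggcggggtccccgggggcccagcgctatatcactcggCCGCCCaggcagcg
MMP10 had an AP-1 match beginning 67 bases and a TATA match beginning 31 bases before its start, and no GC box in the window. MMP14 had 1 GC box, 66 bases before its RefSeq start. TIMP3 had 5 GC boxes, the farthest 166 bases and the nearest 18 bases before its start. TIMP1 had a GC box 135 bases before its RefSeq start and another at 45 bases that was left off. Of the genes called but not shown, ADAM10 had a GC box. The windows of ADAM19 and ADAMTS6, which also rose at SPARC 5, had no match to any of the 4 motifs. GC boxes were in 30 of the 45 windows and in 42.64% of all 35116 windows of the same length. No filter on gene type was applied to the 35116, whereas the 45 are of protein-coding genes. The AP-1 motif was in 4 of the 45 windows (ADAMTS12, MMP10, MMP20 and MMP7) and in 6.57% of all windows. TATA boxes were in 8 of the 45 windows and in 10.72% of all windows, and the CAGA box was in 0 of the 45 and in 0.23% of all windows. Motif matches describe letters and not bound sites.

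Of the 71 genes, 35 had enough counts to be tested, 33 had counts but fell below the filter, and 3 had 0 counts in all 20 samples. The 3 without a count were MMP26, a matrilysin, and ADAM2 and ADAM18, sperm surface proteins. A count of 0 allows up to 0.00399 CPM over the 20 samples pooled, and between 0.0599 and 0.0941 CPM in a single sample. This limit covers counting error only and takes counts as independent. Of the counts between 1 and 20, 70.6% were even over all genes and 67.4% over the 71 genes, so the limit may be too low. All 4 TIMP genes were tested, as were 13 of 23 MMP, 9 of 20 ADAM, 7 of 19 ADAMTS and 2 of 5 ADAMTSL genes. Of the 33 genes below the filter, 14 had at most 20 counts summed over 20 samples. The highest single counts among the 33 were 28 for MMP23B, 26 for ADAM12, which cleaves insulin-like growth factor binding proteins, and 25 for the aggrecanase ADAMTS4. Several classic matrix proteases were in this group. MMP3 (stromelysin 1) had 119 counts over all samples, MMP13 (collagenase 3) 79, MMP7 (matrilysin) 33, MMP12 (macrophage elastase) 31 and MMP8 (neutrophil collagenase) 9. The aggrecanase ADAMTS5 had 14 counts and the procollagen processor ADAMTS2 had 17. The others below the filter were ADAM7, 20, 21, 23, 28, 29, 30 and 33, ADAMTS8, 9, 10, 12, 14, 16, 18, 19 and 20, ADAMTSL1, 2 and 3, and MMP16, 20 and 27. A run of 9 MMP genes lies on chromosome 11 between 102520508 and 102955734 (GRCh38), and 2 of the 9, MMP1 and MMP10, were tested.

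**Figure D1:**
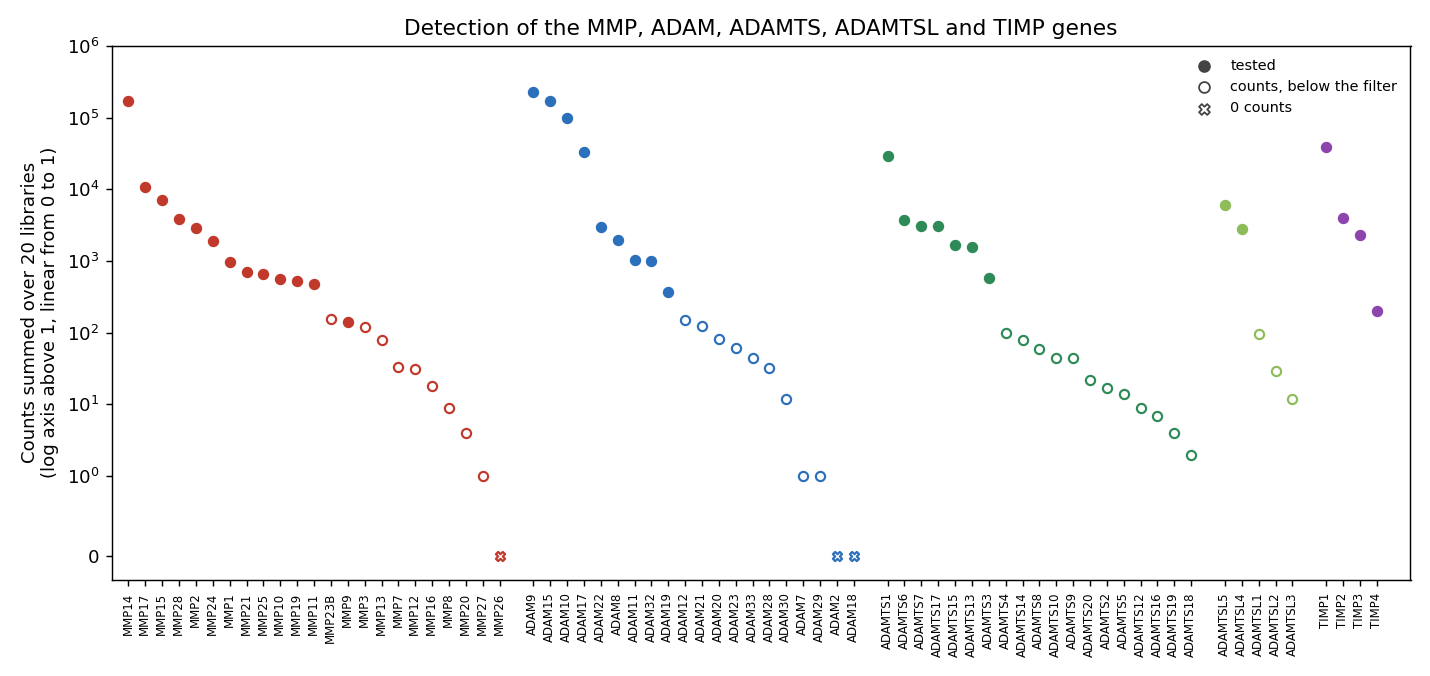
Counts summed over 20 libraries (vertical axis, log above 1 and linear from 0 to 1) for each of the 71 genes, coloured by family, with filled circles for the 35 tested, open circles for the 33 below the filter and crosses for the 3 with 0 counts. Every TIMP gene was tested, while most ADAMTS genes lay below the filter.

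Levels of different genes were compared as CPM per kilobase of exon, using the union of exons in GENCODE 29, so they depend on the annotated length. Without SPARC, MMP14, which activates proMMP2 and cuts pericellular collagen, had the highest level at 47.3 ± 1.66 CPM per kilobase (SD, n = 5). Next came the sheddase ADAM9 at 42.9 ± 1.06, the adhesion-linked ADAM15 at 35.0 ± 1.19 and the inhibitor TIMP1 at 32.2 ± 1.61 CPM per kilobase. These 4 genes held 80.5% ± 0.529 of the summed CPM per kilobase of all 71 genes in control and 81.2% ± 0.333 at SPARC 5. A gap followed. It depends on the exon length used, 16168 bases for ADAM10 and 1541 for TIMP1, and in CPM ADAM10 was above TIMP1. Per kilobase, ADAM10 stood at 7.72 ± 0.154, the proteoglycan-cleaving ADAMTS1 at 5.84 ± 0.564, ADAM17 at 4.07 ± 0.191 and the membrane-anchored MMP17 at 3.69 ± 0.296 CPM. ADAMTSL5, MMP15 and MMP28 followed at 2.21 ± 0.341, 2.12 ± 0.394 and 2.05 ± 0.346 CPM per kilobase and did not differ from each other beyond their spread. All other genes tested were below 1 CPM per kilobase, down to ADAM19 at 0.0274 ± 0.0156. By class, ADAMs with a protease site held 46.3% of the summed level in control, membrane-type MMPs 27.7% and TIMPs 17.3%. Collagenases held 0.410% and the gelatinases MMP2 and MMP9 together 0.390%.

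**Figure D2:**
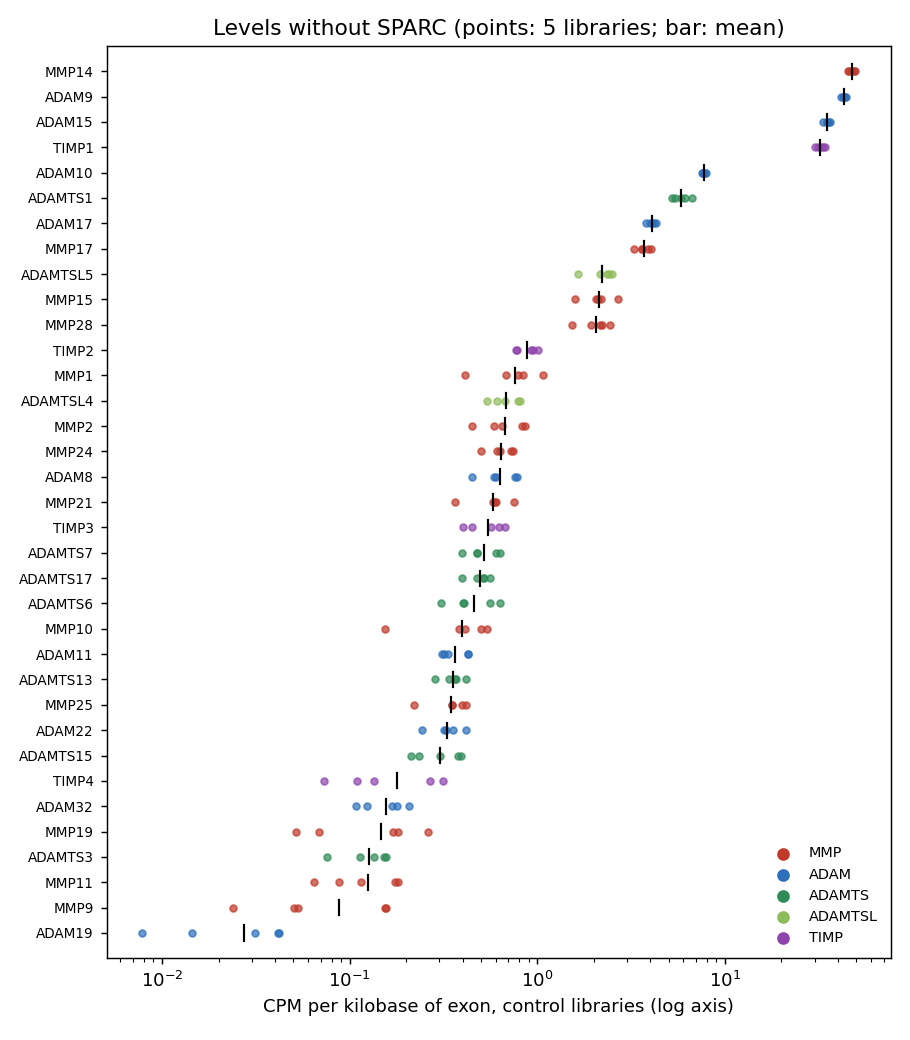
Level without SPARC in CPM per kilobase of exon (horizontal log axis) for the 35 genes tested, with 5 points for the control libraries and a bar at their mean. MMP14, ADAM9, ADAM15 and TIMP1 stand between 32.2 and 47.3, apart from ADAM10 at 7.72 and the rest.

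At SPARC 5 against control, 7 of the 35 genes rose, 2 fell and 26 did not pass an adjusted p of 0.05 (edgeR quasi-likelihood F-test, Benjamini-Hochberg over 22938 genes). The background was 11.6% of all genes tested called in either direction, 7.04% rising and 4.58% falling; the 9 genes called here are 25.7% of 35. The genes that rose were MMP14, ADAM10, ADAM19, ADAMTS6, ADAMTS15, TIMP1 and TIMP3, and those that fell were MMP25 and ADAM11. The median log2 fold change over the 35 was 0.01, beside −0.01 over all genes. In 6 of the 35 the SPARC 5 and control samples did not overlap in CPM, where the background was 7.68%. At an unadjusted p under 0.05 there were 13 genes.

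**Figure D3:**
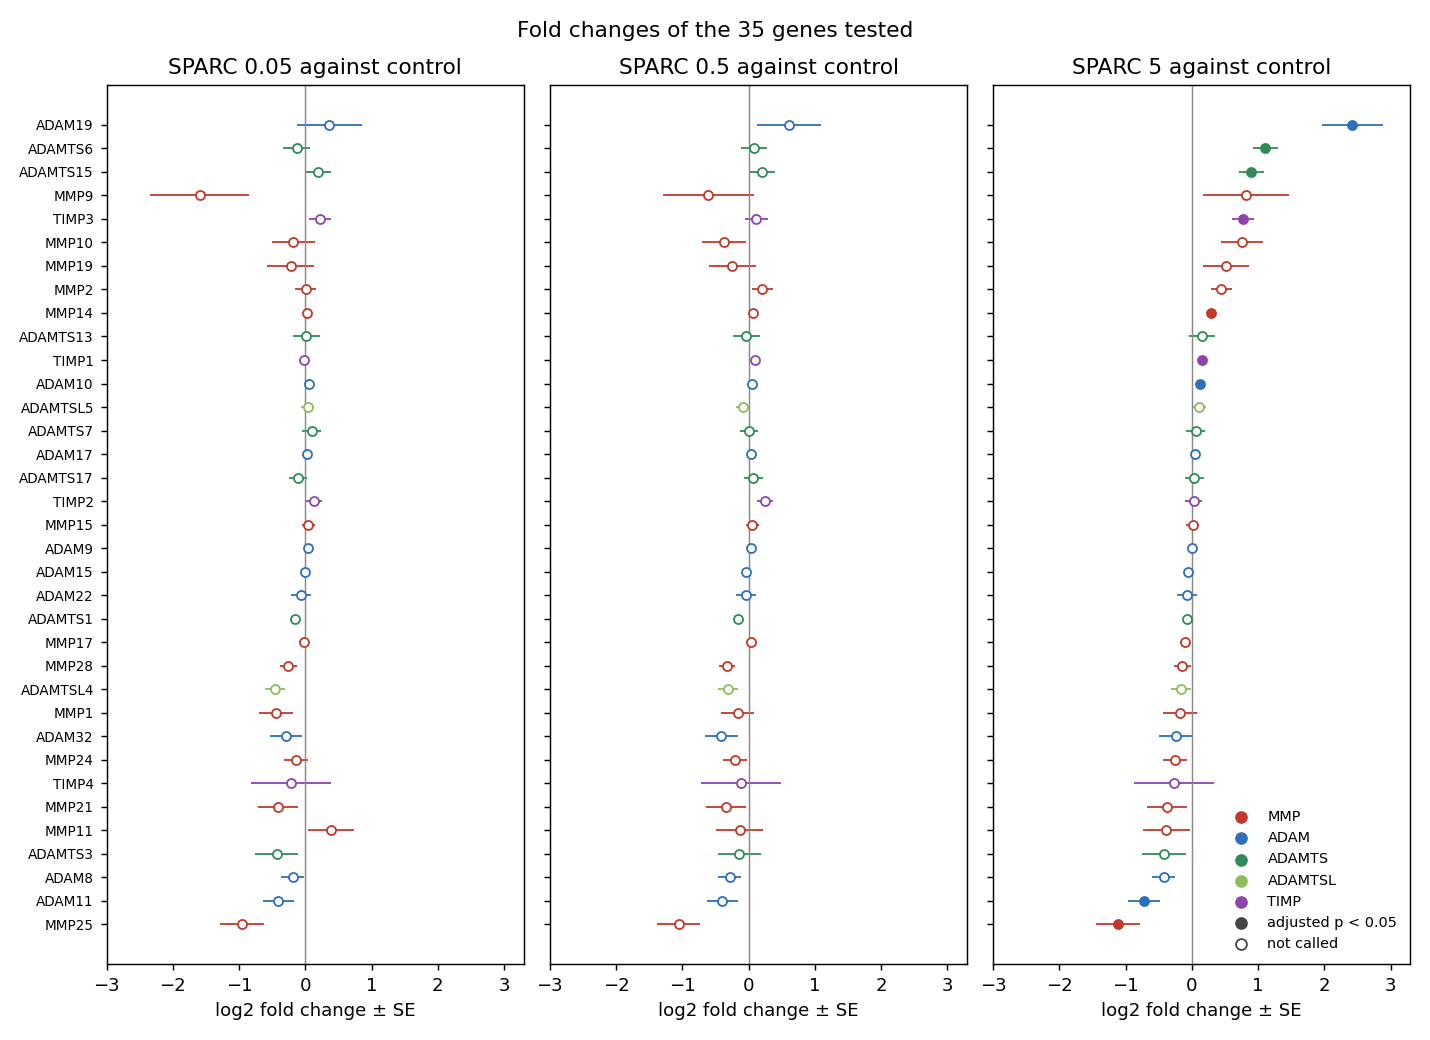
Log2 fold change against control with its SE (horizontal axis) for the 35 genes tested, 1 panel for each SPARC dose in µg/ml, coloured by family, with filled circles for an adjusted p under 0.05. Filled circles appear in the SPARC 5 panel, from ADAM19 at 2.42 down to MMP25 at −1.11, and in neither of the other panels.

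Among the 6 membrane-type MMPs, of which 5 were tested, MMP14 rose and MMP25 fell. MMP14 (ENSG00000157227, chromosome 14, 22836557 to 22849027 of GRCh38) was at 218, 211, 220, 203 and 205 CPM in the 5 control samples. It was at 214, 217, 215, 219 and 214 CPM at SPARC 0.05 and at 230, 227, 216, 215 and 219 CPM at SPARC 0.5. At SPARC 5 it was at 268, 265, 257, 254 and 241 CPM, each above every sample of the 3 other groups. The log2 fold change against control was 0.28 ± 0.03 (SE, 95% interval 0.23 to 0.34, adjusted p = 7.7e-15), or 1.22-fold. Over the alternatives run, the adjusted p was at most 1.70e-11. The lower doses gave 0.07 ± 0.03 (adjusted p = 0.225) and 0.03 ± 0.03 (adjusted p = 0.818). With the GC content correction the SPARC 0.5 value became 0.12 with an adjusted p of 0.00201.

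MMP25 (ENSG00000008516, chromosome 16, 3046681 to 3060726), a protease held at the membrane by a lipid anchor, was at 1.64, 1.45, 1.45, 0.911 and 1.72 CPM in control. It was at 0.639, 0.405, 1.05, 0.881 and 0.305 CPM at SPARC 5, a log2 fold change of −1.11 ± 0.33 (adjusted p = 0.0151), and the groups overlapped. At SPARC 0.05 it was at 0.584, 0.583, 1.09, 0.539 and 0.881 CPM, and at SPARC 0.5 at 0.408, 0.314, 0.539, 0.477 and 1.68 CPM. All SPARC 0.05 samples and 4 of the 5 SPARC 0.5 samples thus lay below the control mean, as did all SPARC 5 samples; the 3 comparisons share the same control samples. At SPARC 0.5 the log2 fold change was −1.06 ± 0.33 (adjusted p = 0.0664), and without replicate 5 of that group −1.70 (adjusted p = 0.00147). In the authors' deposited table MMP25 fell at SPARC 0.5, with a log2 fold change of −1.25 and an adjusted p of 0.0173. The call at SPARC 5 was lost without replicate 2 (adjusted p = 0.0507), without replicate 5 (0.0660) and without both (0.228) of that group. An antisense gene, MMP25-AS1, overlaps 1454 of the 4126 exon bases of MMP25 and was at 6.66 CPM in control and 6.10 CPM at SPARC 5 (log2 fold change −0.13, adjusted p = 0.584). Within this overlap, reads of the 2 genes cannot be told apart, since no source used here states the strand setting of the counting.

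The other membrane-type MMPs did not pass at any dose against control. MMP17, at 14.8 ± 1.19 CPM in control, had a log2 fold change of −0.10 ± 0.08 at SPARC 5 (adjusted p = 0.483), and MMP15, at 9.37 ± 1.74 CPM, one of 0.01 ± 0.10 (adjusted p = 0.958). At the 3 doses in rising order, MMP17 was at 14.6 ± 0.365, 15.1 ± 1.18 and 13.7 ± 1.19 CPM and MMP15 at 9.68 ± 0.865, 9.72 ± 1.04 and 9.49 ± 1.15 CPM. MMP24, which shares 799 of its 4414 exon bases with the antisense gene MMP24OS, was at 2.82 ± 0.424 CPM in control and 2.36 ± 0.498 CPM at SPARC 5. Summed over the class, membrane-type MMPs were at 54.1 ± 1.67 CPM per kilobase without SPARC and at 55.0 ± 0.712, 56.3 ± 1.74 and 63.9 ± 2.58 at the 3 doses in rising order, most of it MMP14.

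None of the 8 secreted MMPs tested passed at SPARC 5 against control, where 11.6% of all genes tested were called. MMP2, the gelatinase that MMP14 activates, came nearest. It was at 4.24, 2.20, 4.09, 2.91 and 3.20 CPM in control and at 4.00, 2.93, 4.13, 6.28 and 5.35 CPM at SPARC 5, and the groups overlapped. Its log2 fold change was 0.44 ± 0.16 (95% interval 0.13 to 0.76, adjusted p = 0.0517), and over the alternatives run its adjusted p lay between 0.00974 and 0.301. MMP2 was described here after its values were seen. MMP10 (ENSG00000166670, chromosome 11, 102770503 to 102780628), or stromelysin 2, which is made by epithelium at wound edges, was at 0.947, 0.725, 0.271, 0.676 and 0.875 CPM in control. It was at 0.70, 0.456, 0.727, 0.719 and 0.476 CPM at SPARC 0.05, at 0.628, 0.629, 0.519, 0.525 and 0.383 CPM at SPARC 0.5 and at 1.09, 1.37, 0.741, 1.10 and 1.61 CPM at SPARC 5, with counts between 11 and 58 in all samples. SPARC 5 lay wholly above SPARC 0.5 but overlapped control. The log2 difference was 1.14 ± 0.32 against SPARC 0.5 (adjusted p = 0.0196), 0.94 ± 0.32 against SPARC 0.05 (adjusted p = 0.0515) and 0.76 ± 0.32 against control (adjusted p = 0.119). The difference from SPARC 0.5 lost its call without replicate 2 of SPARC 5 (adjusted p = 0.0542), without its replicate 5 (0.0932) and without replicate 5 of SPARC 0.5 (0.0665).

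MMP9 (ENSG00000100985, chromosome 20, 46008908 to 46016561), the gelatinase of the wounded corneal epithelium, was near the detection limit, with 0 to 28 counts a sample. It was at 0.0557, 0.362, 0.123, 0.118 and 0.362 CPM in control, at 0.0292, 0, 0.0260, 0.180 and 0.0952 CPM at SPARC 0.05, at 0.0628, 0.183, 0.120, 0.191 and 0.0959 CPM at SPARC 0.5, and at 0.480, 0.187, 0.669, 0.330 and 0.111 CPM at SPARC 5. SPARC 5 was above SPARC 0.05 by 2.41 ± 0.72 on the log2 scale (adjusted p = 0.0198), although the groups overlapped. Leaving out 1 sample ended this call in 5 of the 10 possible cases, with an adjusted p of up to 0.112. The filter kept MMP9 through samples of control and SPARC 5, since no sample at the lower doses reached 10 counts. With only SPARC 5 and SPARC 0.05 fitted, it did not pass the filter and was not tested. Against control the values were 0.82 ± 0.64 at SPARC 5 (adjusted p = 0.511) and −1.59 ± 0.75 at SPARC 0.05 (adjusted p = 0.505). MMP1, interstitial collagenase, was at 1.49 ± 0.473 CPM in control and 1.32 ± 0.491 CPM at SPARC 5 (adjusted p = 0.756). MMP28, an epithelial MMP known from skin, was at 5.87 ± 0.990 CPM without SPARC and at 4.92 ± 0.628, 4.69 ± 0.572 and 5.33 ± 0.557 CPM at the 3 doses in rising order, with adjusted p values of 0.526, 0.174 and 0.571 against control. MMP11, MMP19 and MMP21 were each at 1.11 CPM or less in control, and their adjusted p at SPARC 5 lay at 0.601, 0.404 and 0.513.

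Of the 6 tested ADAMs with a protease site, ADAM19 and ADAM10 rose at SPARC 5. ADAM19 (ENSG00000135074, chromosome 5, 157395534 to 157575775), a sheddase of neuregulin, was at 0.111, 0.242, 0.320, 0.323 and 0.0604 CPM in control. It was at 0.350, 0.405, 0, 0.180 and 0.429 CPM at SPARC 0.05 and at 0.408, 0.314, 0.479, 0.191 and 0.240 CPM at SPARC 0.5. At SPARC 5 it was at 0.853, 1.47, 1.10, 1.49 and 0.888 CPM, above every sample of the other groups. The log2 fold change was 2.42 ± 0.46 against control (95% interval 1.51 to 3.34, adjusted p = 3.76e-05), 2.06 ± 0.45 against SPARC 0.05 (adjusted p = 0.000431) and 1.81 ± 0.44 against SPARC 0.5 (adjusted p = 0.00338). Per kilobase of exon, ADAM19 had the lowest level of the 35 genes in control. It is not in the authors' deposited tables of the doses against control.

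ADAM10 (ENSG00000137845, chromosome 15, 58588807 to 58749978), the main sheddase of Notch receptors and of cadherins, was at 127, 123, 124, 128 and 123 CPM in control and at 141, 131, 132, 133 and 142 CPM at SPARC 5. The groups did not overlap, and the log2 fold change was 0.12 ± 0.03 (95% interval 0.06 to 0.18, adjusted p = 0.00319). The call was lost when samples were scaled by library size only (0.07, adjusted p = 0.106) and with the GC content correction (0.07, adjusted p = 0.132). Its exons have 38.3% GC. ADAM10 was at 133, 126, 128, 131 and 129 CPM at SPARC 0.05 and at 119, 132, 131, 137 and 128 CPM at SPARC 0.5, and neither dose passed against control. SPARC 5 did not pass against SPARC 0.5 (0.07, adjusted p = 0.247) or SPARC 0.05 (0.07, adjusted p = 0.176).

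ADAM17, which sheds TNF and most EGF receptor ligands, was at 43.7 ± 2.05 CPM in control and 45.1 ± 2.10 CPM at SPARC 5, with a 95% interval of −0.04 to 0.14 for the log2 fold change (adjusted p = 0.628). It shares 1323 of its 10750 exon bases with IAH1 on the other strand, which was at 30.8 CPM in control. ADAM9 was at 297 ± 7.34 CPM without SPARC and at 304 ± 6.98, 304 ± 4.52 and 298 ± 7.63 CPM at the 3 doses in rising order, with an interval of −0.04 to 0.05 at SPARC 5. ADAM15 was at 231 ± 7.82 CPM in control, 229 ± 9.36 CPM at SPARC 0.05, 225 ± 2.94 CPM at SPARC 0.5 and 222 ± 6.66 CPM at SPARC 5 (log2 fold change −0.06 ± 0.03, adjusted p = 0.164). At SPARC 5 its adjusted p was 0.00219 with scaling by library size only and 0.0403 without replicate 2 of SPARC 5. ADAM8, known from leukocytes and activated epithelium, was at 3.04 ± 0.652 CPM in control and 2.26 ± 0.240 CPM at SPARC 5 (adjusted p = 0.108). Summed over the class, protease-competent ADAMs were at 90.6 ± 1.21 CPM per kilobase in control and 90.1 ± 1.27 at SPARC 5.

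Among the 3 tested ADAMs without a protease site, ADAM11 fell at SPARC 5 against control. ADAM11 (ENSG00000073670, chromosome 17, 44759031 to 44781846), an adhesion protein best known from neurons, was at 1.48, 1.60, 2.04, 2.03 and 1.51 CPM in control and at 0.799, 0.967, 1.43, 1.13 and 0.915 CPM at SPARC 5, without overlap. It was at 1.05, 1.57, 1.40, 1.47 and 1.05 CPM at SPARC 0.05 and at 1.29, 1.36, 1.82, 0.906 and 1.2 CPM at SPARC 0.5, and both groups overlapped control and SPARC 5. Against control the log2 fold change was −0.41 ± 0.23 at SPARC 0.05 (adjusted p = 0.630) and −0.39 ± 0.23 at SPARC 0.5 (adjusted p = 0.477). SPARC 5 did not pass against SPARC 0.05 (−0.31, adjusted p = 0.552) or SPARC 0.5 (−0.32, adjusted p = 0.611). At SPARC 5 against control its log2 fold change was −0.72 ± 0.24 (95% interval −1.19 to −0.25, adjusted p = 0.0324). The call was lost with no filter on low counts (adjusted p = 0.0833), with the GC content correction (0.0533) and in 5 of 10 cases when 1 sample was left out, up to 0.101. ADAM22 and ADAM32 were at 4.04 ± 0.772 and 1.57 ± 0.404 CPM in control and 3.85 ± 0.569 and 1.33 ± 0.291 CPM at SPARC 5, and neither passed.

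**Figure D4:**
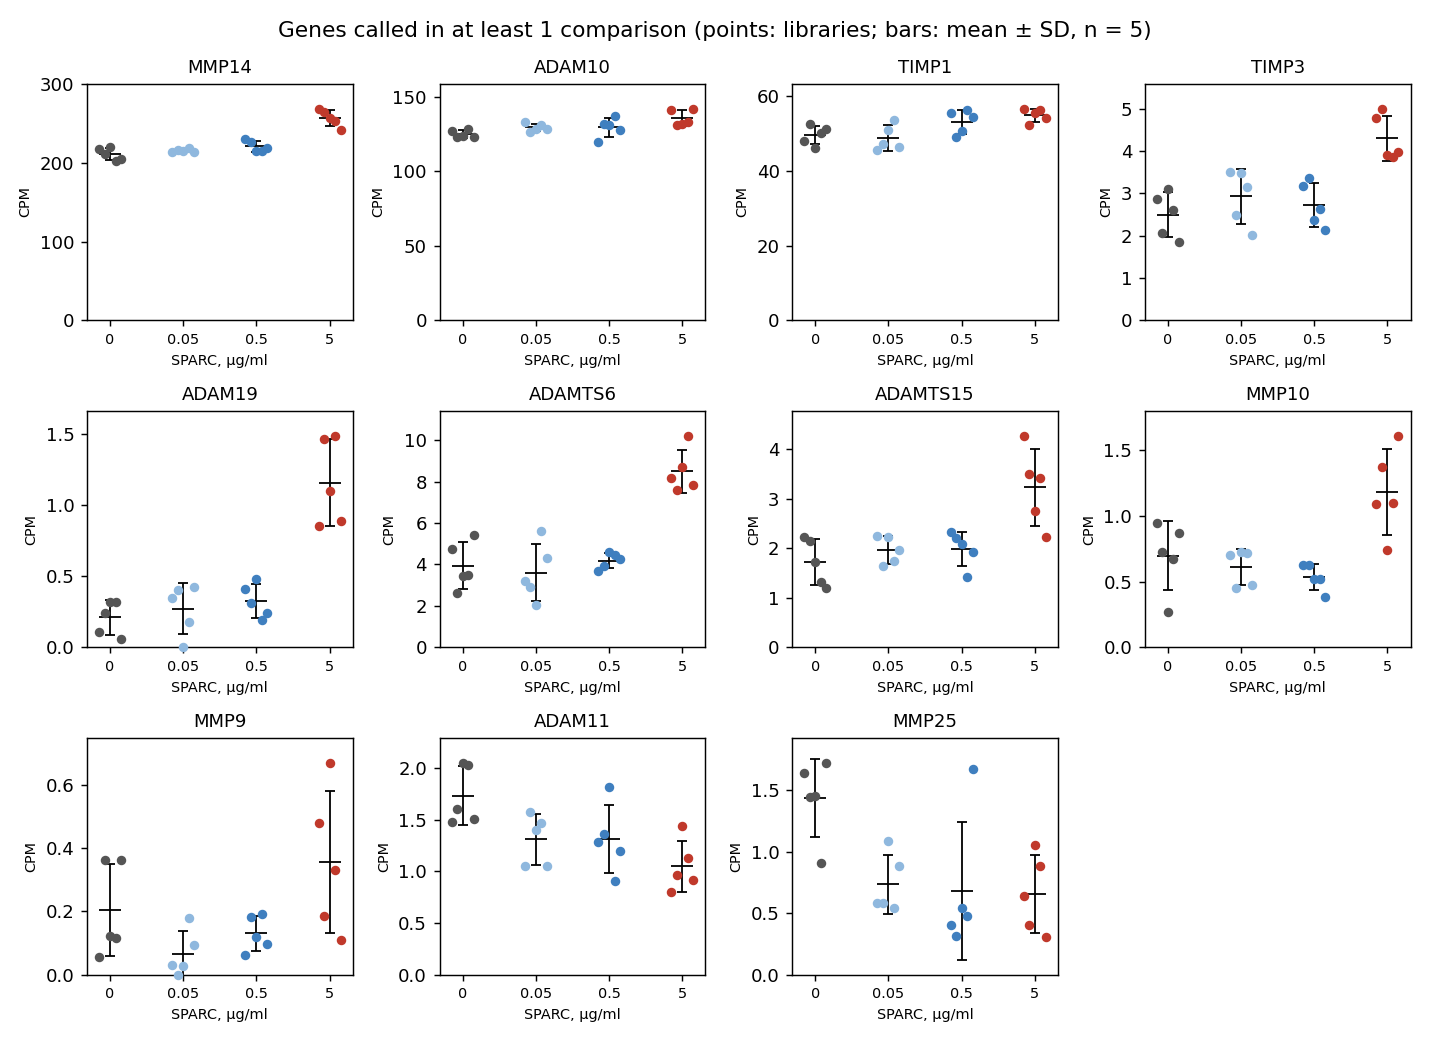
CPM (vertical axes from 0, each with its own range) against SPARC dose in µg/ml for the 11 genes called in at least 1 comparison, with 5 points for the libraries of a group and mean ± SD. MMP14, ADAM19, ADAMTS6 and TIMP3 at 5 µg/ml lie above every sample of the other doses.

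Of the 7 ADAMTS genes tested, ADAMTS6 and ADAMTS15 rose at SPARC 5 and none fell. ADAMTS6 (ENSG00000049192, chromosome 5, 65148736 to 65481920), which acts on microfibril proteins, was at 4.76, 2.63, 3.42, 3.50 and 5.43 CPM in control. It was at 3.21, 2.91, 2.02, 5.60 and 4.31 CPM at SPARC 0.05 and at 3.70, 3.90, 4.59, 4.46 and 4.24 CPM at SPARC 0.5. At SPARC 5 it was at 8.15, 7.58, 8.70, 10.2 and 7.85 CPM, above every other sample. The log2 fold change was 1.11 ± 0.19 against control, 2.15-fold (adjusted p = 0.000146) and 0.09 ± 0.20 at SPARC 0.5 (adjusted p = 0.909).

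ADAMTS15 (ENSG00000166106, chromosome 11, 130448974 to 130476641), a protease of the proteoglycan versican, was at 2.23, 2.14, 1.72, 1.32 and 1.21 CPM in control and at 4.26, 3.49, 2.75, 3.41 and 2.22 CPM at SPARC 5. It was at 2.25, 1.65, 2.23, 1.74 and 1.98 CPM at SPARC 0.05 and at 2.32, 2.20, 2.08, 1.43 and 1.92 CPM at SPARC 0.5. The lowest SPARC 5 sample lay within the control range. The log2 fold change was 0.90 ± 0.19 against control (adjusted p = 0.000288), 0.71 ± 0.19 against SPARC 0.05 (adjusted p = 0.00654) and 0.70 ± 0.19 against SPARC 0.5 (adjusted p = 0.0120). Without replicate 1 of SPARC 5, the differences from SPARC 0.05 and SPARC 0.5 had adjusted p values of 0.0659 and 0.106; without replicate 4 of SPARC 0.5 the latter was 0.0715. ADAMTS1, the most abundant ADAMTS, was at 41.3 ± 3.98 CPM without SPARC and at 37.1 ± 2.58, 36.9 ± 2.27 and 39.2 ± 2.57 CPM at the 3 doses in rising order, with an adjusted p of 0.0929 at SPARC 0.5. Scaled by library size only, or without control replicate 2, ADAMTS1 passed at SPARC 0.5 (adjusted p = 0.0382 and 0.0395). ADAMTS3, ADAMTS7, ADAMTS13 and ADAMTS17 did not pass in any of the 6 comparisons. ADAMTS7 has pseudogene copies, of which ADAMTS7P3 reached 33 counts in a sample, so its reads may be split.

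Neither ADAMTSL gene tested passed. ADAMTSL4, which binds fibrillin and is known for the lens zonule, was at 4.40 ± 0.743 CPM without SPARC and at 3.19 ± 0.372, 3.54 ± 0.581 and 3.90 ± 0.893 CPM at the 3 doses in rising order, and its lowest adjusted p against control was 0.204. ADAMTSL5 was at 8.00 ± 1.24 CPM in control, 8.18 ± 0.189 CPM at SPARC 0.05, 7.52 ± 0.663 CPM at SPARC 0.5 and 8.65 ± 0.483 CPM at SPARC 5 (adjusted p = 0.560).

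Of the 4 TIMPs, TIMP1 and TIMP3 rose at SPARC 5. TIMP1 (ENSG00000102265, chromosome X, 47582313 to 47586789), the secreted inhibitor that pairs with proMMP9, was at 48.1, 52.5, 46.3, 50.1 and 51.3 CPM in control. It was at 45.7, 47.3, 51.1, 53.8 and 46.5 CPM at SPARC 0.05, at 55.5, 49.2, 50.6, 56.5 and 54.5 CPM at SPARC 0.5 and at 56.6, 52.4, 55.7, 56.2 and 54.1 CPM at SPARC 5. SPARC 5 and control overlapped in 1 sample each. The log2 fold change was 0.15 ± 0.04 against control (95% interval 0.06 to 0.24, adjusted p = 0.0156) and 0.17 ± 0.04 against SPARC 0.05 (adjusted p = 0.00478). Against SPARC 0.5, SPARC 5 did not pass (0.05, adjusted p = 0.715). The call against control was lost with scaling by library size only (adjusted p = 0.122), without control replicate 1 (0.0525), without control replicate 3 (0.0827) and without replicate 1 of SPARC 5 (0.0564).

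TIMP3 (ENSG00000100234, chromosome 22, 32801701 to 32863043), which binds the matrix and also inhibits ADAM17 and aggrecanases, was at 2.87, 2.05, 3.10, 2.62 and 1.84 CPM in control. It was at 3.50, 2.48, 3.48, 3.14 and 2.02 CPM at SPARC 0.05 and at 3.17, 3.35, 2.38, 2.62 and 2.13 CPM at SPARC 0.5. At SPARC 5 it was at 4.77, 4.99, 3.90, 3.85 and 3.97 CPM, above every other sample. The log2 fold change was 0.77 ± 0.17 against control (95% interval 0.45 to 1.10, adjusted p = 0.000288), 0.66 ± 0.16 against SPARC 0.5 (adjusted p = 0.00498) and 0.56 ± 0.16 against SPARC 0.05 (adjusted p = 0.0166). The difference from SPARC 0.05 lost its call without replicate 2 (adjusted p = 0.0676) or 5 (0.111) of SPARC 0.05 and without replicate 1 (0.0630) or 2 (0.0653) of SPARC 5. TIMP1 and TIMP3 lie within introns of SYN1 and SYN3 on the other strand, and these were at 0.326 and 0.261 CPM in control. TIMP2, needed for activation of MMP2 by MMP14, was at 4.99 ± 0.600 CPM in control, 5.43 ± 0.429 CPM at SPARC 0.05, 5.94 ± 1.00 CPM at SPARC 0.5 and 5.06 ± 0.748 CPM at SPARC 5 (adjusted p = 0.939 at SPARC 5), and TIMP4 was at 0.297 ± 0.172 and 0.249 ± 0.182 CPM. Summed TIMP level averaged 33.8 CPM per kilobase in control and 37.7 at SPARC 5, most of it TIMP1.

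At the lower doses none of the 35 genes passed against control in edgeR, with 7 at an unadjusted p under 0.05 at SPARC 0.5 and 5 at SPARC 0.05. DESeq2 also called 0, but it gave an adjusted p for only 26 of the 35 at SPARC 0.5 and for 7 at SPARC 0.05, and for MMP25 at neither dose. The background was 2.25% of all genes called at SPARC 0.5 and 0.266% at SPARC 0.05. SPARC 5 against SPARC 0.5 gave 6 rises (background 3.31%; 4.80% in either direction) and 0 falls (background 1.49%): MMP14, MMP10, ADAM19, ADAMTS6, ADAMTS15 and TIMP3. SPARC 5 against SPARC 0.05 gave 7 rises (background 5.54%; 8.28% in either direction) and 0 falls (background 2.74%): MMP14, MMP9, ADAM19, ADAMTS6, ADAMTS15, TIMP1 and TIMP3. With only the SPARC 5 and SPARC 0.05 samples fitted, MMP9 was not tested. Both comparisons share the SPARC 5 samples. Of the corneal stroma and fibroblast markers, COL1A1 rose in the same 2 comparisons, by 0.44 ± 0.13 (adjusted p = 0.0333) and 0.66 ± 0.14 (adjusted p = 0.000167) on the log2 scale, and its part in the results was not tested. SPARC 0.5 against SPARC 0.05 gave 0 calls in edgeR and in DESeq2, which gave an adjusted p for 23 of the 35, with 1 gene at an unadjusted p under 0.05 and a background of 0.179%. In the comparisons of SPARC 5 with SPARC 0.5 and SPARC 0.05, DESeq2 gave no adjusted p for 12 and 6 of the 35, among them ADAM19, MMP10 and MMP9, and called 4 and 5.

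The authors' deposited tables of the doses against control list 29 of the 71 genes. At SPARC 5 their adjusted p was under 0.05 for 8 of these, 6 rising and 2 falling, and the same 8 were called here. Those tables and the counts come from the same libraries and are not independent.

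Genes that activate, carry or tether these proteases were described from a list of 23, of which 21 were tested. The list was chosen with earlier results of these data known, so its counts beside the background cannot be read as an enrichment. At SPARC 5 against control, 6 rose (background 7.04%) and 1 fell (background 4.58%), with a median log2 fold change of 0.02 beside −0.01 over all genes. FURIN, the convertase that removes the prodomain of MMP14 and of ADAMs, went from 154 to 173 CPM (log2 fold change 0.17 ± 0.03, adjusted p = 2.57e-06). TSPAN5, a tetraspanin that guides ADAM10 to the surface, went from 35.8 to 55.1 CPM (0.62 ± 0.05, adjusted p = 7.56e-21). CD44, which holds MMP14 and MMP9 at the membrane, rose by 0.21 ± 0.02 and CAV1, which takes part in uptake of MMP14, by 0.17 ± 0.02. RHBDF1 and FRMD8, parts of the complex that carries ADAM17, rose by 0.16 ± 0.05 and 0.11 ± 0.04. PCSK7, another convertase, fell by 0.11 ± 0.03 on the log2 scale. At SPARC 0.5, TSPAN5, CAV1 and CD44 rose and PCSK7 fell, beside a background of 2.25% called in either direction. At SPARC 0.05, edgeR called 0 of the 21 (background 0.266%), with 0 at an unadjusted p under 0.05, and DESeq2 called 0 of the 15 for which it gave an adjusted p. The membrane inhibitor RECK was at 6.49 CPM in control and 6.61 CPM at SPARC 5 (adjusted p = 0.948).

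Known substrates of shedding or cleavage were described from a list of 28, of which 24 were tested. Earlier results of these data were known when this list was chosen, so its counts cannot be read as an enrichment over the background. At SPARC 5 against control, 7 rose (background 7.04%) and 3 fell (background 4.58%), with a median log2 fold change of 0.07 beside −0.01 over all genes. FN1, COL17A1, FBN2 and THBS1 are matrix or basement membrane substrates that rose, and AREG, ALCAM and CD46 are cell surface substrates that rose. COL17A1, a hemidesmosomal collagen shed by ADAMs, rose by 0.35 ± 0.03 on the log2 scale. The EGF receptor ligand AREG, which ADAM17 sheds, rose by 0.35 ± 0.06. NOTCH1 and IL6R, both shed receptors, fell by 0.17 ± 0.03 and 0.20 ± 0.06, and the proteoglycan BCAN fell by 0.79 ± 0.14 on the log2 scale. TNF had at most 2 counts in a sample, and VCAN and ACAN were also below the filter. At SPARC 0.5, 2 of the 24 rose (FN1 and THBS1), beside 2.25% of all genes called in either direction. At SPARC 0.05, 1 did (FN1), beside 0.266% of all genes; DESeq2 called 2 of the 16 for which it gave an adjusted p.

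Related metalloproteases and inhibitors outside the name rule numbered 15, of which 9 were tested. They too were chosen with earlier results of these data known, so their counts cannot be read as an enrichment over the background. At SPARC 5 against control, 3 rose (background 7.04%) and 0 fell (background 4.58%), with a median log2 fold change of 0.14 beside −0.01 over all genes. DESeq2 called 5 of the 9. TLL1, a tolloid-like procollagen protease, went from 7.58 to 22.6 CPM (1.58 ± 0.09, adjusted p = 1.70e-28). SPOCK1, a proteoglycan of the SPARC family that has been linked to MMP activation, went from 0.585 to 1.98 CPM (1.74 ± 0.34, adjusted p = 7.59e-05). THSD4, an ADAMTS-like fibrillin binder, rose by 0.19 ± 0.05. BMP1, the main procollagen C-proteinase, was at 53.0 CPM in control and 57.5 CPM at SPARC 5 (adjusted p = 0.0601). At the lower doses against control, edgeR called 0 of the 9 (background 2.25% and 0.266%), with 2 at an unadjusted p under 0.05 at SPARC 0.5 and 1 at SPARC 0.05. DESeq2 also called 0, but it gave an adjusted p for only 5 of the 9 at SPARC 0.5 and 3 at SPARC 0.05.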

How the data were processed

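RNA of 20 hTCEpi samples (4 groups of 5) was depleted of ribosomal RNA by an RNase H method and primed with random hexamers, per the labels' protocols. The deposited counts are whole read counts per gene that the authors made; per the submitters' processing notes, tools named are the aligner STAR 2.7.9a, the quantifiers Salmon 1.5.2 and featureCounts 2.0.3 (of Subread), and bcl2fastq, limma and edgeR, with build GRCh38. The strand setting and the annotation release were not given in the sources used here. The authors' deposited comparison tables hold, per the file headers, log2 fold changes, p-values and a B score. Of the counts between 1 and 20 over all genes, 70.6% were even, so an alternative halved all counts.

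The table had 60871 entries for 60671 identifiers; equal repeated entries of 168 identifiers were used once, removing 0.278% to 0.296% of counts. Counts were fitted in R 4.3.3 with edgeR 4.0.16 (TMM, filterByExpr with minimum count 10, robust quasi-likelihood F-test, 4 group means in 1 model), with Benjamini-Hochberg adjustment over 22938 genes and calls at an adjusted p under 0.05. CPM use TMM-scaled library sizes. Exon lengths, positions and GC content, the last taken from the longest transcript of a gene, come from GENCODE 29. Total counts were between 31955358 and 50112286. Limits for genes without a count cover counting error only, and PCR copies were not marked. Intervals of log2 fold changes come from the edgeR fit and include the spread between samples. Replicate pairs differed by a chi-square per gene of 4.09 to 9.55 over 40 pairs, so none looked like 1 library deposited again. The fit was tested on simulated data.

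The genes, the lists of partners, substrates, related enzymes and markers, and the tests were chosen with earlier results of these data known; 1 gene of the substrate list is not reported here and is in none of that list's counts. Values per sample are given for genes called in any of the 6 comparisons and group means for the 3 highest per kilobase in each family (ADAMTS with ADAMTSL); others have levels or counts. Alternatives were scaling by library size only, DESeq2 1.42.0, no filter beyond 1 count, the replicate number as a block, only the 2 groups compared, a GC content correction (loess, span 0.5, on genes of at least 1 CPM) and each sample left out. Halved counts, and leaving out replicates 2 and 5 of SPARC 5, were added after seeing the data. Promoter windows are RefSeq's.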

Additional observations from a re-analysis of the deposited data

Results flagged for a closer look

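In each group of 5 samples, a gene was picked out when its highest or lowest sample lay far from the nearest other sample relative to the group's range (above Dixon's 95% critical value). Among 72 checks of 18 genes this picked out 4, and chance picks out about 1 in 20. In SPARC 5, replicate 2 had the highest ADAM15 level at 233 CPM, where the next sample had 221 CPM, and the highest MMP15 level at 11.5 CPM, where the next had 9.48 CPM. In SPARC 0.05, replicate 1 had the lowest MMP17 level at 13.9 CPM, next to 14.6 CPM. In SPARC 0.5, replicate 5 had the highest MMP25 level at 1.68 CPM, where the next sample had 0.539 CPM. No cause was tested.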

How the results depend on the processing

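For the 35 genes, the count called at SPARC 5 against control was 9, between 7 and 10 when 1 sample was left out, and 8 without replicates 2 and 5 of SPARC 5. MMP14, ADAM19, ADAMTS6, ADAMTS15 and TIMP3 kept that call under each of the 18 alternatives run. At SPARC 0.5 against control the count was 0 and became 1 with scaling by library size only (ADAMTS1), with the replicate block (MMP25) and with the GC content correction (MMP14), and lay between 0 and 1 with 1 sample left out. SPARC 5 against SPARC 0.05 gave 7, between 4 and 7 with 1 sample left out, and SPARC 5 against SPARC 0.5 gave 6, between 5 and 6. The cause was not tested.

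Over all genes, SPARC 0.5 against control gave 517 calls, 802 with DESeq2 and between 267 and 608 with 1 sample left out. SPARC 0.05 against control gave 61, with 206 in DESeq2, 19 with the GC content correction and between 22 and 82 with 1 sample left out. SPARC 0.5 against SPARC 0.05 gave 41, with 83 in DESeq2, 70 with no filter, 66 with the replicate block, 80 with only the 2 groups compared, 67 with the GC content correction and between 15 and 52 with 1 sample left out. With scaling by library size only, the share of rises among calls went from 60.6% to 31.3% at SPARC 5, from 60.3% to 28.6% at SPARC 0.5 and from 70.5% to 47.8% at SPARC 0.05, and the median log2 fold change over all genes tested at SPARC 5 from −0.01 to −0.05.

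With the replicate number as a block, 10 of the 35 genes passed at SPARC 5 in place of 9, MMP2 being added (adjusted p = 0.0453). Same-numbered samples showed little shared deviation: over 30 pairs the correlation averaged 0.00174 and none was over 0.1. Of 20 samples, 5 correlated best with their own number. The labels give only a replicate number, and these values cannot decide whether the numbers pair the samples. Over all genes, the block raised the calls against control from 2665 to 2750 at SPARC 5. It raised them from 517 to 612 at SPARC 0.5 and from 61 to 87 at SPARC 0.05. Calls rose from 1100 to 1175 for SPARC 5 against SPARC 0.5 and from 1900 to 2004 against SPARC 0.05. For SPARC 0.5 against SPARC 0.05 they rose from 41 to 66. Of 1959 values of single named genes under alternatives, 1904 kept their side of the threshold, 34 lost it, 21 gained it and 0 changed direction past it. DESeq2 gave no adjusted p for 31 values. Counts near 0, such as those of MMP9 and ADAM19, limit the precision.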
